A study of Mus musculus with 2 samples.

Results

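Among the mouse lens epithelial cells (LECs) profiled at postnatal day 2 (P2), 19051 barcodes had the LEC profile. Of these, 1000 carried many transcripts of R3hdml and Cntf and few of Igfbp5, Podn and Ptgds. They were chosen on unique molecular identifiers (UMIs, each a counted transcript). A barcode had to hold 949 to 20198 UMIs and 446 to 4261 genes, at most 15% mitochondrial UMIs and at least 2% of UMIs from the alpha crystallins Cryaa and Cryab. It then needed at least 6 UMIs of R3hdml and Cntf together, at most 1 of Igfbp5, Podn and Ptgds together and at most 1 of Hes5, a Notch effector. Cells with 1% or more of their UMIs from Cryba2, Cryba4 and Crybb1, with 4 or more from Ube2c, Cenpf, Cdc20, Ccnb1, Prc1 and Hmmr, or with 4 or more from Hist1h1b, Hist1h2ap and Hist1h2ae were left out as differentiating or cycling. These gate genes are therefore described below but not tested. The word non-cycling below means only that a cell fell under these cell cycle limits. Of the 1000 cells, 674 had 0 UMIs of those cell cycle genes.

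The cells came from wild-type C57BL/6N pups, and no treatment, transgene or mutant was involved. Lens capsules with their attached epithelium were peeled off, digested to single cells and captured with the droplet-based 10x 3′ v3.1 chemistry in 2 independent pools, each made from 4 to 8 pups. Replicate 1 held 12314 barcodes and replicate 2 held 9425. No animal could be told apart within a pool, so every comparison rests on 2 pools. With the pool as a block, a p-value measures how differences between classes of cells vary from pool to pool. It does not measure the spread between animals.

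The lens epithelium is a monolayer that covers the front of the lens, divides, secretes the lens capsule and, at the equator, differentiates into fiber cells filled with crystallins. R3hdml encodes a secreted protein of the cysteine-rich secretory protein family. Cntf encodes ciliary neurotrophic factor, a cytokine that signals through a receptor with gp130 to STAT3. Igfbp5 encodes an insulin-like growth factor binding protein, Podn the small leucine-rich proteoglycan podocan and Ptgds a prostaglandin D synthase.

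The gate leaned on 1 gene. R3hdml alone reached 6 UMIs in 822 of the 1000 cells, Cntf alone in 3, and neither alone in 177. The median cell held 8 R3hdml UMIs and 1 Cntf UMI, and 303 cells held no Cntf UMI. Of the 1000 cells, 401 had no UMI of Igfbp5, Podn and Ptgds and 599 had 1. The R3hdml gene lies on chromosome 2 (GRCm38, 163492318 to 163502612, plus strand). Cntf lies on chromosome 19 (12763660 to 12765632, minus strand), wholly inside Zfp91 on the same strand, so 3′ reads of that stretch could belong to either gene and the Cntf level is uncertain. The 250 bases in front of the start of both gate genes, from RefSeq (GRCm38.p6, chr2:163492068-163492317 on the plus strand and chr19:12765633-12765882 on the minus strand, read in the direction of the gene), are shown because these 2 genes chose the cells. Capitals mark TGACTCA, the sequence bound by AP-1 (Fos and Jun) proteins, which was searched on both strands.
R3hdml: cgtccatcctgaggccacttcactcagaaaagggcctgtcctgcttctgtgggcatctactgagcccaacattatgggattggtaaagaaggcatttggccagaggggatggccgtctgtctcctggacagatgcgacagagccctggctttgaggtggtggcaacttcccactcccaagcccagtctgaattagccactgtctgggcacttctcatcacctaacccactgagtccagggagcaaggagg
Cntf: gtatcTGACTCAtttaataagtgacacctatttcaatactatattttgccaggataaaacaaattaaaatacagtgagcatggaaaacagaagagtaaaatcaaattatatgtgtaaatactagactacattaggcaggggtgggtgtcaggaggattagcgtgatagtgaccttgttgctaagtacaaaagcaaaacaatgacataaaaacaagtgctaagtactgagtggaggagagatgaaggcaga
The R3hdml window held no match, and the Cntf window held 1, starting 245 bases before the gene. A match was present in 4.46% of 32851 RefSeq windows of the same length. All 4 genes looked up in the promoter table were found.

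The share of LEC barcodes inside the gate was 5.45% (95% exact interval, 5.04 to 5.89) in replicate 1 and 4.97% (4.50 to 5.47) in replicate 2, or 5.25% in both together (SD between pools 0.344). The intervals cover counting error only. The pools held 601 and 399 of these cells. Their median depths were 5476 and 6809 UMIs, their median mitochondrial shares 5.67% and 5.49% and their median alpha crystallin shares 6.00% and 5.94%.

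For comparison, other classes of LECs within the same beta crystallin and cell cycle limits were formed. These limits did not remove every differentiating cell. The Igfbp5-rich LECs passed the same R3hdml and Cntf minimum but held 2 or more UMIs of Igfbp5, Podn and Ptgds (2373 and 1437 cells). The R3hdml-low LECs had under 6 UMIs of R3hdml and Cntf and at most 1 of the Igfbp5 trio (2883 and 1633 cells). The Hes5-positive LECs held 2 or more Hes5 UMIs, whatever their R3hdml or Igfbp5 count (1122 and 1248 cells). Depth was close in the Igfbp5-rich class, with medians of 5476 and 6809 UMIs in the R3hdml-rich, Igfbp5-poor LECs and 5626 and 7121 in the Igfbp5-rich LECs. It was higher in the R3hdml-low (5981 and 7981) and Hes5-positive (5976 and 7375) classes.

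The label was held against the data first. Levels are given as CPM, the UMIs of a gene over all UMIs summed in a class of a pool and scaled by the trimmed mean of M values (TMM). R3hdml reached 1584 and 1388 CPM in the R3hdml-rich, Igfbp5-poor LECs, below the 1774 and 1524 CPM of the Igfbp5-rich LECs. Cntf stood at 218 and 209 CPM, against 233 and 216 CPM in the Igfbp5-rich LECs. The cells were thus rich in both genes relative to the R3hdml-low LECs, which had 125 and 95.7 CPM of R3hdml and 56.6 and 48.9 CPM of Cntf, but not relative to the Igfbp5-rich LECs. Igfbp5 stood at 64.1 and 55.2 CPM in the gated cells, against 901 and 626 CPM in the Igfbp5-rich LECs. Since the gate allows 1 UMI per cell, Igfbp5 was low and not absent.

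**Figure D1:**
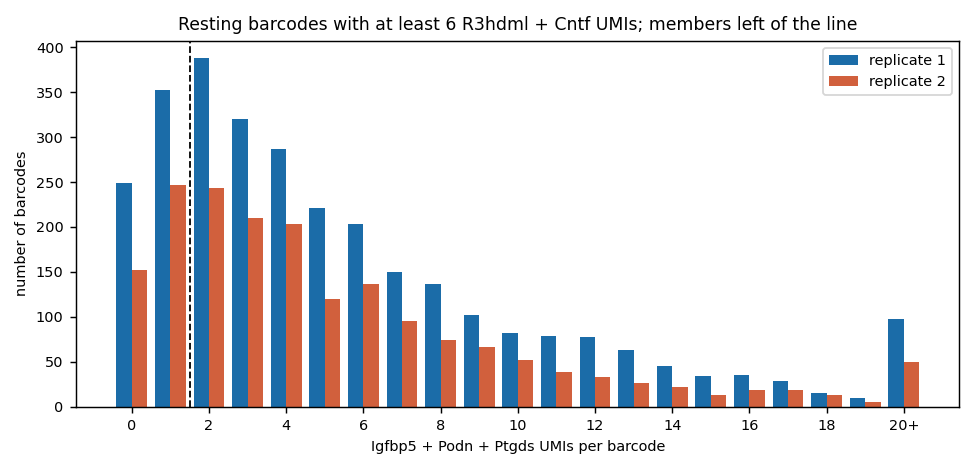
Number of barcodes (vertical axis) by the summed UMIs of Igfbp5, Podn and Ptgds (horizontal axis) among non-cycling, Hes5-poor LECs with at least 6 R3hdml and Cntf UMIs, in replicate 1 (blue) and replicate 2 (orange); the last bar pools 20 or more. The gated cells, left of the dashed line, held 249 and 352 barcodes at 0 and 1 UMI in replicate 1 and sat on the low side of 1 continuous spread with no gap at the limit.

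The limit between the gated cells and the Igfbp5-rich LECs did not fall in a gap. Of 2974 LECs of replicate 1 that passed every other limit, 249 had 0 UMIs of the trio, 352 had 1, 388 had 2 and 320 had 3. Replicate 2 had 152, 247, 243 and 210 among 1836. The other limit was similar. The 95 and 69 cells with exactly 6 R3hdml and Cntf UMIs, just inside the gate, had 233 and 214 CPM of Slc7a11, against 308 and 233 CPM in the 118 and 75 cells with 5, just outside (CPM of summed UMIs without TMM). Htra3 stood at 998 and 862 CPM just inside the gate and at 1036 and 811 CPM just outside. The gate therefore marks off a range and not a separated cluster.

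The remaining genes of the label were chosen on these cells, so their levels are given without a test. Slc7a11, the cystine and glutamate exchanger that feeds glutathione synthesis, stood at 307 and 293 CPM in the gated cells, against 377 and 383 CPM in the Igfbp5-rich LECs and 89.1 and 64.0 CPM in the R3hdml-low LECs. Alad, the second enzyme of heme synthesis, stood at 159 and 163 CPM in the gated cells, against 143 and 162 CPM in the Igfbp5-rich LECs and 56.0 and 55.0 CPM in the R3hdml-low LECs. Alad thus hardly differed between the gated cells and the Igfbp5-rich LECs, whereas Slc7a11 was lower in the gated cells in both pools. Among LECs with at least 6 R3hdml and Cntf UMIs, Slc7a11 rose with the Igfbp5 trio. It stood at 305 and 276 CPM at 0 UMIs and 461 and 415 CPM at 9 or more (without TMM). LECs with under 6 UMIs of R3hdml and Cntf but 2 or more of the trio had 290 and 231 CPM of Slc7a11. They had 119 and 115 CPM of Alad. Ppp1r1a, an inhibitor of protein phosphatase 1, had 496 and 575 CPM in the gated cells, the highest of the 7 LEC classes in both pools, against 384 and 399 CPM in the Igfbp5-rich LECs and 335 and 302 CPM in the R3hdml-low LECs. Htra3, a secreted serine protease, had 963 and 841 CPM, also the highest of the 7 classes, against 785 and 712 CPM in the Igfbp5-rich LECs and 530 and 413 CPM in the R3hdml-low LECs. Just outside the gate, at 5 R3hdml and Cntf UMIs, Ppp1r1a was as high (564 and 596 CPM without TMM). With at most 3 Cdkn1c UMIs in every class, an alternative chosen after the data had been seen, the log2 difference from the R3hdml-low LECs was −0.0042 for Ppp1r1a (0.74 with all cells), 0.24 for Htra3 (0.94), 0.82 for Slc7a11 (1.96) and 0.87 for Alad (1.53). The 6 label genes all had UMIs in the gated cells of both pools.

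**Figure D2:**
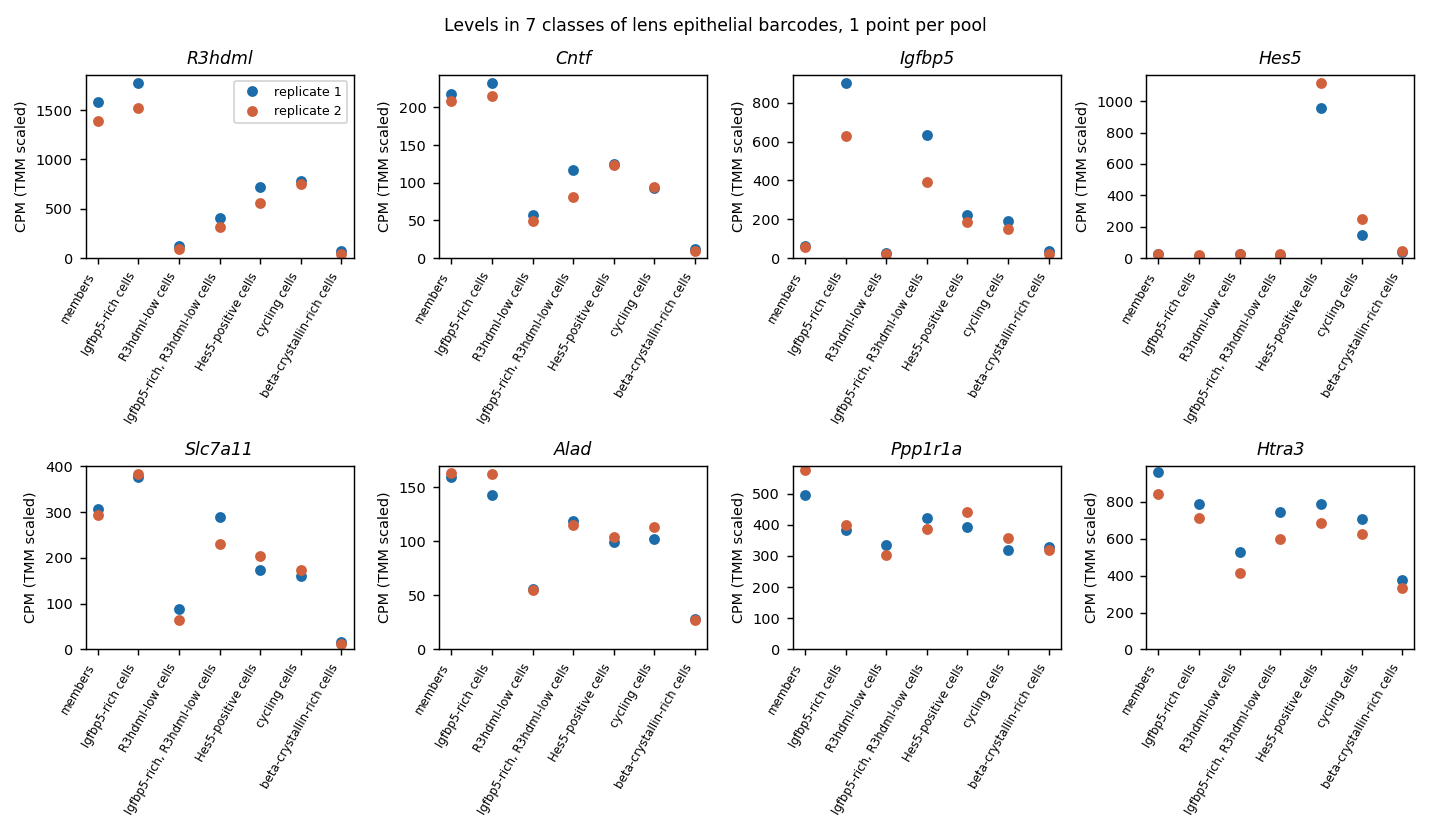
Level (TMM-scaled CPM, vertical axes) of R3hdml, Cntf, Igfbp5, Hes5, Slc7a11, Alad, Ppp1r1a and Htra3 in 7 classes of LEC barcodes, the gated cells (members) leftmost, with 1 point per pool. R3hdml and Cntf were as high or higher in the Igfbp5-rich class, whereas Ppp1r1a (496 and 575 CPM) and Htra3 (963 and 841 CPM) were highest in the gated cells.

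Free RNA in the droplets gives UMIs to cells that do not express a gene, so endothelial barcodes of the same pools (286 and 205, median 3652.5 and 3819 UMIs) served as background. With every cell thinned to 3000 UMIs, which left out 12 and 6 gated cells, Slc7a11 was detected in 53.0% of gated cells and in 1.59% of endothelial barcodes (73.0% and 3.46% before thinning). Ppp1r1a was detected in 73.1% of gated cells and 2.87% of endothelial barcodes after thinning (88.9% and 3.87% before). Alad and Htra3 had a higher endothelial share, with 38.3% of gated cells against 20.7% of endothelial barcodes for Alad and 92.7% against 31.2% for Htra3 (59.2% against 26.3% and 98.8% against 40.5% before thinning). Summed endothelial and macrophage markers were low: 6 endothelial genes added up to 118 and 92.3 CPM in the gated cells, against 8255 and 8532 CPM in the endothelial barcodes, and 6 macrophage genes to 3.16 and 1.44 CPM. Col1a1, Krt5, Krt12, Krt14, Dct and Mlana had no UMI in the gated cells of either pool, but other genes of their lists did. The 4 fibroblast genes summed to 103 and 116 CPM, against 12.1 and 9.87 CPM in the endothelial barcodes and 126 and 129 CPM in the Igfbp5-rich LECs. The 4 pigment cell genes summed to 6.04 and 5.77 CPM, and Krt15 had 9 and 2 UMIs. The 6 mural genes summed to 10.6 and 33.2 CPM. Hemoglobin and other erythroid genes differed between the pools, at 141 and 20.6 CPM in the gated cells against 54.6 and 402 CPM in the Igfbp5-rich LECs. The pools shared 27 barcode sequences, 3 of them on gated cells.

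The gate required the alpha crystallins, so their abundance was fixed in advance and does not tell epithelium from fiber. Cryab (43429 and 46753 CPM), Crybb3 (19523 and 19496), Malat1 (17490 and 15672) and Cryaa (15904 and 13531) were the most abundant transcripts outside mitochondrial and ribosomal protein genes. They were followed by Tpt1, Eef1a1, Igfbp7, Hsp90ab1, Ppia and Fos, and the growth factor binding protein Igfbp7 stood at 4006 and 4561 CPM. Pax6, the regulator of eye development, was present at 335 and 309 CPM. Foxe3, an epithelial transcription factor of the lens, was at only 5.21 and 6.06 CPM.

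The gated cells also varied among themselves. After thinning to 3000 UMIs, 3436 genes were ranked by variance over the Poisson expectation, whose median was 1.02. Malat1 (9.68 and 12.8 times the Poisson variance), Crybb3 (5.10 and 6.18), Jun (5.37 and 5.00) and Fos (4.71 and 5.64) led. Btg2, Crygs, Cdkn1c, Ier2, H2afz and Cryba1 completed the first 10. The ratio grows with abundance at an equal relative spread, so this ranking favors abundant genes and does not show which genes varied most in relative terms. The same ratios in the Igfbp5-rich LECs were 11.3 and 11.3 for Malat1, 7.20 and 7.57 for Crybb3 and 5.86 and 5.68 for Jun, so this spread was not particular to the gated cells.

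Levels moved with the R3hdml and Cntf count, but not alike in every gene. Among non-cycling LECs with at most 1 UMI of the Igfbp5 trio, Slc7a11 stood at 43.3 and 28.6 CPM in cells without an R3hdml or Cntf UMI, at 287 and 241 CPM at 6 to 8 UMIs and at 351 and 325 CPM at 13 or more (CPM without TMM). Folr1, the folate receptor, stood at 175 and 163 CPM, 607 and 582 CPM, and 752 and 673 CPM in the same bins. Cdkn1c, which encodes the cell cycle inhibitor p57Kip2 and marks LECs leaving the cycle to become fibers, ran the other way, at 4727 and 5765 CPM, 790 and 532 CPM, and 453 and 495 CPM. Ppp1r1a levelled off below the gate, at 276 and 242 CPM without such a UMI, 545 and 502 CPM at 3 to 5, 528 and 593 CPM at 6 to 8 and 486 and 553 CPM at 13 or more. Htra3 likewise stood at 406 and 306 CPM, 957 and 729.5 CPM, 973 and 819 CPM, and 1021 and 878 CPM in these bins. Most of the Cdkn1c difference also lay below the gate, since cells with 3 to 5 UMIs already had 961 and 1422 CPM. These bins were made from the same cells as the gate, and the median depth was 6353 and 8461.5 UMIs in the lowest bin and 5680 and 7010 in the highest. Levels also moved along the Igfbp5 trio in LECs with at least 6 R3hdml and Cntf UMIs. From 0 trio UMIs to 9 or more, Folr1 rose from 637 and 603 CPM to 1089 and 1090 CPM. Ppp1r1a fell from 533 and 664 CPM to 341 and 312 CPM. Folr1 was called lower in the gated cells than in the Igfbp5-rich LECs by edgeR.

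**Figure D3:**
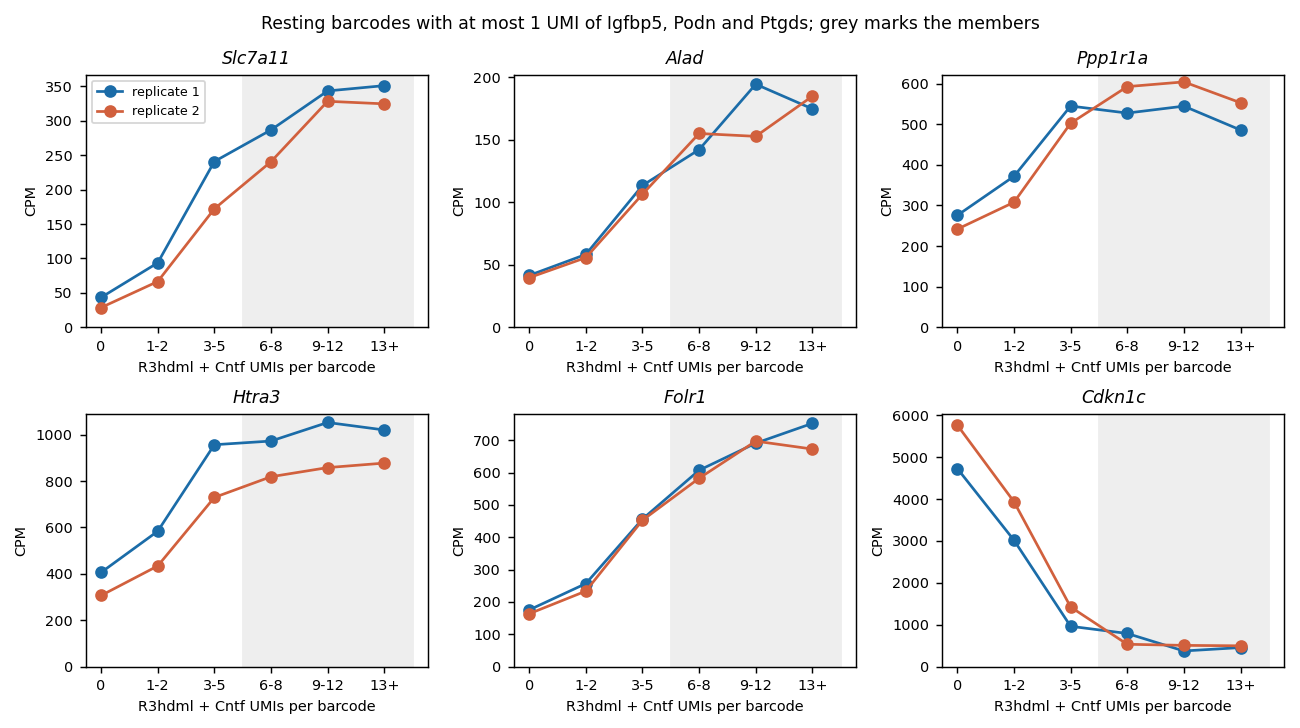
Level (CPM of summed UMIs, vertical axes) of Slc7a11, Alad, Ppp1r1a, Htra3, Folr1 and Cdkn1c by R3hdml and Cntf UMIs per barcode (horizontal axis) in non-cycling LECs with at most 1 UMI of Igfbp5, Podn and Ptgds, 1 line per pool; grey marks the bins inside the gate (members). Slc7a11 was at 43.3 and 28.6 CPM at 0 UMIs and at 351 and 325 CPM at 13 or more, while Cdkn1c was at 4727 and 5765 CPM and at 453 and 495 CPM.

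The first comparison asked what distinguished R3hdml-rich LECs with little Igfbp5 from those with more. Glutathione S-transferases of the mu class were higher in the gated cells, as were Cthrc1 and Fgfbp3, while the type IV collagens and other genes of the lens capsule and the gap junction gene Gja1 were lower. The 20 named genes, all with at least 50 CPM in the higher class, had log2 differences of 1.06 or less in size, and among all called genes 11 were higher and 28 lower by more than 1. UMIs were summed per pool and class and tested with edgeR's quasi-likelihood test with the pool as a block, and p-values were adjusted by the Benjamini-Hochberg method over 13304 genes outside the gate. In this test 303 genes were higher (2.28% of those tested) and 215 were lower (1.62%) in the gated cells at an adjusted p under 0.05. Without the pool as a block only 9 and 4 were called. The balance of higher and lower calls also moved with the scaling, at 121 and 278 without TMM and 395 and 103 in DESeq2.

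Gstm1 and Gstm2 encode enzymes that conjugate glutathione to electrophiles. Gstm1 reached 2771 and 2599 CPM in the gated cells, against 1631 and 1628 CPM in the Igfbp5-rich LECs, a log2 difference of 0.72 (SE 0.049, edgeR quasi-likelihood test, adjusted p = 5.44e-09). Its level in the gated cells was the highest of the 7 classes in both pools. Gstm2 had 208 and 208 CPM, against 124 and 129 CPM (log2 difference 0.72, SE 0.062, adjusted p = 2.25e-07 in edgeR). Gstm6 had 167 and 147 CPM, against 115 and 110 CPM in the Igfbp5-rich LECs (0.49, SE 0.061, adjusted p = 5.84e-05 in edgeR, not called without the pool block). Both pools of the gated cells lay above both pools of the Igfbp5-rich LECs for all 3 genes. The genes lie within 1 cluster on chromosome 3 (GRCm38, minus strand), Gstm6 at 107938847 to 107943749, Gstm2 at 107981702 to 107986453 and Gstm1 at 108012255 to 108017973. Because they are close paralogs, reads could be split between them and the level of each is uncertain. The 250 bases before the start of Gstm1 and Gstm2, the pair that was also called without the pool block, are shown, with capitals on the longest identical run that both windows share (chr3:108017974-108018223 for Gstm1 and chr3:107986421-107986670 for Gstm2).
Gstm1: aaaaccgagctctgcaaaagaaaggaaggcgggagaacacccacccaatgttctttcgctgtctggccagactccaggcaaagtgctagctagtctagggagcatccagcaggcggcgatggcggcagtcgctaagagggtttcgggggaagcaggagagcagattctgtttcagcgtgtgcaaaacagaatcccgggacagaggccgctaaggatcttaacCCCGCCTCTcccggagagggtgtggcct
Gstm2: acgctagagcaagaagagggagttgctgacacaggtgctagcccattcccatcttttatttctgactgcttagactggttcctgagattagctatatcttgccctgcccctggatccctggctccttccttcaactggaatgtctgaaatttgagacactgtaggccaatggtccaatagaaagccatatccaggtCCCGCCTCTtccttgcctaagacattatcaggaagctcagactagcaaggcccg
The shared run CCCGCCTCT lay 28 bases before the Gstm1 start and 54 before the Gstm2 start as RefSeq gives them. The RefSeq start of Gstm2 lies inside the GENCODE gene whose position is given above, so the end of that window overlaps the GENCODE gene. It occurred, on either strand, in 1.70% of all windows of this length, and 49.8% of the 291 aligned positions of the 2 windows were identical. Of the 20 tested genes for cystine and glutathione handling, Gstm1 and Gstm2 were higher and none was lower in edgeR (1 was lower at an unadjusted p under 0.05). DESeq2 called 3 higher and 0 lower, and the median log2 difference of the list was 0.03 beside −0.01 for all genes.

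Other genes above the Igfbp5-rich level were mostly of low abundance. Cthrc1, a secreted glycoprotein, had 133 and 152 CPM in the gated cells, against 77.7 and 89.1 CPM (log2 difference 0.78, SE 0.064, adjusted p = 1.31e-07 in edgeR). Pcp4l1, a small protein with a calmodulin-binding motif, had 57.8 and 67.7 CPM, against 34.8 and 35.2 CPM (0.83, SE 0.095, adjusted p = 1.85e-05 in edgeR). Fgfbp3, which binds fibroblast growth factors, had 62.2 and 89.8 CPM, against 36.1 and 51.2 CPM. Glycam1, a mucin-like glycoprotein, had 54.8 and 54.9 CPM, against 34.5 and 31.9 CPM. Cenpa, the centromeric histone, Hmgb2, a chromatin protein, and Dusp15, a phosphatase, followed with log2 differences of 0.71, 0.57 and 0.48. The Hmgb2 difference was 0.86 in replicate 1 alone and 0.31 in replicate 2 alone. Of these, Pcp4l1, Cthrc1, Glycam1, Gstm1 and Gstm2 were also called without the block.

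Among the genes that were lower, Gja1, which encodes the gap junction protein connexin 43, had 97.3 and 99.8 CPM in the gated cells, against 172 and 156 CPM in the Igfbp5-rich LECs (log2 difference −0.74, SE 0.081, adjusted p = 8.87e-06 in edgeR). Cd59a, an inhibitor of the complement attack complex, had 53.4 and 56.3 CPM, against 84.3 and 89.9 CPM (−0.66, SE 0.077, adjusted p = 2.13e-05 in edgeR). Both were also called without the block. Gas6, a ligand of TAM receptor kinases, had 28.8 and 24.6 CPM, against 49.7 and 51.5 CPM, and the transcription factor Bhlhe40 had 32.3 and 33.5 CPM, against 53.7 and 54.9 CPM. Igkc, an immunoglobulin constant region gene that overlaps Gm30211 on its strand, had 64.4 and 37.8 CPM, against 114 and 102 CPM. Neat1, Zfp36, B3gnt5 and Plekha1 were lower, with log2 differences of −0.73 to −0.50. Apoe had 31.0 and 48.5 CPM, against 50.8 and 79.3 CPM (adjusted p = 0.0409 in edgeR). The 6 macrophage markers summed to 3.16 and 1.44 CPM in the gated cells and 8.31 and 1.87 CPM in the Igfbp5-rich LECs, and in the gated cells Csf1r and Tyrobp were at 0 in replicate 1 and C1qa and Pf4 in replicate 2. The mural markers (10.6 and 33.2 CPM, against 40.1 and 35.9 CPM) and fibroblast markers (103 and 116 CPM, against 126 and 129 CPM) were also lower. The fibroblast sum was similar in the R3hdml-low LECs (113 and 113 CPM). In the gated cells Col1a1 had no UMI in either pool and Col3a1 none in replicate 1. The part of these 3 marker lists in the Apoe difference was not tested, and Apoe was no longer called in DESeq2 or without the pool block.

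**Figure D4:**
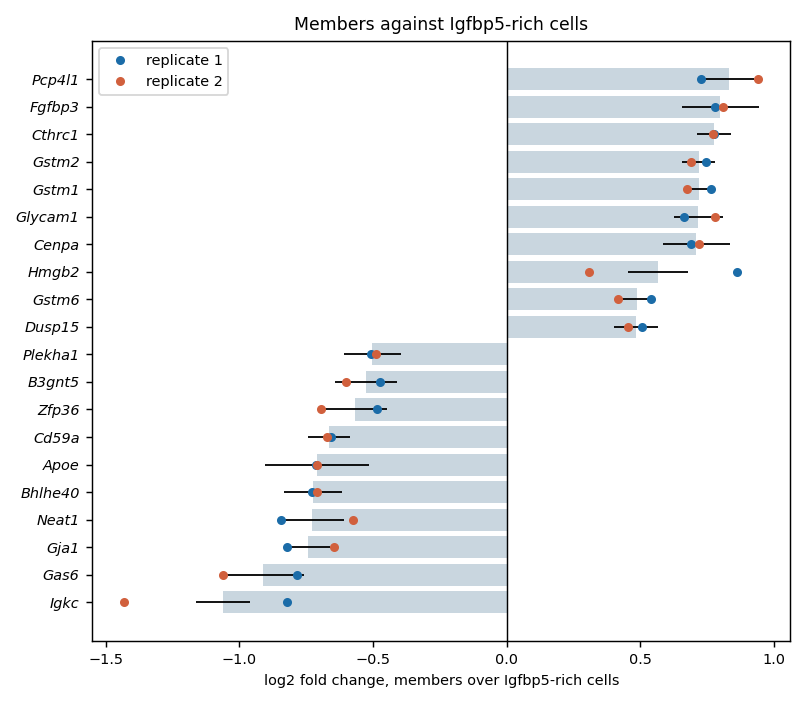
Log2 fold change (horizontal axis) of the 10 largest increases and 10 largest decreases in the gated cells (members) over the Igfbp5-rich LECs; bars give the fitted value, lines 1 SE either side of it, and points the value within each pool. Values ran from 0.83 for Pcp4l1 to −1.06 for Igkc, and the same direction in both pools was a condition for naming a gene.

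The lens capsule is the basement membrane that LECs secrete. Of 18 tested capsule genes, 0 were higher and 9 were lower in the gated cells than in the Igfbp5-rich LECs by edgeR, and 8 were lower in DESeq2. No capsule gene was higher at an unadjusted p under 0.05 either, and 12 were lower. The median log2 difference was −0.22, beside −0.01 over all genes. Sparc, a collagen-binding matrix protein, had 2811 and 2488 CPM, against 3541 and 3211 CPM (−0.35, SE 0.044, adjusted p = 6.27e-05 in edgeR). Col4a3 had 130 and 160 CPM, against 186 and 203 CPM (−0.44, SE 0.060, adjusted p = 0.000187 in edgeR). Col4a1, the most abundant collagen IV chain of the list, had 2327 and 2542 CPM, against 2558 and 2841 CPM (−0.15, SE 0.042, adjusted p = 0.0476 in edgeR). Col4a2, Col4a4, Col4a5, Col4a6, Nid1 and Npnt completed the 9. None of the 9 was called without the pool as a block. Against the R3hdml-low LECs, 7 of the 18 capsule genes were higher and 5 lower by edgeR. The higher ones included Sparc, Npnt, Col4a1, Col4a2, Col4a3 and Col4a4, which thus lay between the 2 classes, while Col4a5 and Nid1 were lower there too. Against the Hes5-positive LECs, 3 were higher and 4 lower.

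Some crystallins ran the other way. Of 24 fiber differentiation genes, Crybb2, Crygs and Crybb3 were higher and none was lower in the gated cells, and none was called without the pool block. The crystallin genes Cryba1, Cryga, Crygc, Crygd and Cryge were tested and not called. Crybb3 had 19523 and 19496 CPM, against 15003 and 14483 CPM in the Igfbp5-rich LECs (0.40, SE 0.038, adjusted p = 8.98e-07 in edgeR). Crygs had 692 and 597 CPM, against 541 and 421 CPM (0.43, SE 0.084, adjusted p = 0.00473 in edgeR). The gate excluded cells rich in 3 other beta crystallins from both classes. The alpha crystallins entered both classes only as a minimum. At an unadjusted p under 0.05, 1 gene of the list was lower, and DESeq2 called 2 higher and 0 lower.

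Signaling and cell cycle lists held few calls against the Igfbp5-rich LECs. Of 16 genes of the CNTF and STAT3 pathway, 0 passed in either direction by edgeR or DESeq2, and at an unadjusted p under 0.05 edgeR had 1 higher and 3 lower. Stat3 itself had 73.1 and 46.0 CPM in the gated cells, against 80.1 and 50.5 CPM, and the feedback inhibitor Socs3 had 613 and 489 CPM, against 677 and 540 CPM. Of 14 Notch genes, the targets Nrarp (12.3 and 9.98 CPM, against 6.02 and 6.95 CPM) and Hey1 (29.9 and 30.7 CPM, against 19.0 and 19.2 CPM) were higher. Among 16 mitosis genes outside the gate, Cenpa, Cdk1 and Ccnb2 were higher (none without the pool block) and the median log2 difference was 0.41. Of 20 DNA replication genes, Dut was the 1 higher in edgeR and in DESeq2, 8 were higher and 0 lower at an unadjusted p under 0.05 in edgeR, and the median was 0.36. These medians were larger in size than that of the capsule list. Cdk1, the mitotic kinase, had 30.7 and 35.6 CPM, against 17.6 and 23.8 CPM (0.70, SE 0.15, adjusted p = 0.0114 in edgeR), far below the 425 and 393 CPM of cycling LECs. No lens transcription factor of 16 passed in edgeR. At an unadjusted p under 0.05, 1 was higher and 4 lower, and DESeq2 called 1 higher.

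The second comparison set the gated cells against LECs with as little Igfbp5 but under 6 UMIs of R3hdml and Cntf. Here the differences were large. Genes of fiber differentiation and of the response to fibroblast growth factor (FGF) were lower in the gated cells, and genes of DNA replication and the immediate early response were higher. In edgeR 1309 genes were higher (9.84%) and 1041 lower (7.82%), and 760 and 621 without the pool as a block. Cells with at most 3 Cdkn1c UMIs made up 815 of the 1000 gated cells and 1640 of the 4516 R3hdml-low LECs. The comparison was therefore repeated in such cells only, an alternative chosen after the data had been seen. Of the 11336 genes then tested, 288 were higher and 132 lower. The list counts given below under this limit are to be read beside these and not beside the shares of the main test.

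Cdkn1c had 544 and 505 CPM in the gated cells, against 3235 and 4317 CPM in the R3hdml-low LECs (log2 difference −2.83, SE 0.18, adjusted p = 2.41e-11 in edgeR). Gata3, a transcription factor required for fiber differentiation in mouse, had 4.93 and 2.49 CPM, against 71.7 and 72.8 CPM (−4.22, SE 0.24, adjusted p = 5.57e-12 in edgeR). For both genes the 2 classes were far apart in both pools. Ccdc80, a matrix protein, had 16.4 and 12.8 CPM, against 213 and 217 CPM. Rbm24, an RNA-binding protein, had 14.2 and 13.9 CPM, against 176 and 208 CPM. Id1, a dominant negative regulator of helix-loop-helix proteins that BMP signaling induces, had 36.4 and 28.9 CPM, against 321 and 298 CPM. Basp1, Abca4, Epha5, Nnat and Adamtsl4 were lower, with log2 differences of −3.84 to −3.27. Of 24 fiber differentiation genes, 14 were lower and 3, the gamma crystallins Cryga, Crygd and Crygc, were higher, with a median of −0.33 beside −0.00 over all genes. With at most 3 Cdkn1c UMIs the list had 3 lower and 6 higher, and its median was 0.08.

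Of the genes above the R3hdml-low level, Sostdc1, a secreted BMP and Wnt antagonist, had 63.8 and 65.9 CPM, against 15.4 and 12.8 CPM (2.18, SE 0.13, adjusted p = 1.60e-11 in edgeR). Gja1 had 97.3 and 99.8 CPM, against 27.5 and 23.8 CPM (1.93, SE 0.099, adjusted p = 1.46e-12 in edgeR). Igkc had 64.4 and 37.8 CPM, against 10.0 and 8.20 CPM. Thus Gja1 and Igkc lay between the R3hdml-low and the Igfbp5-rich levels, and so did Sostdc1, which was called lower than in the Igfbp5-rich LECs. Car8, Tenm2, Susd2, Acta2, Pla2g4a and Klf4 were the other named genes, higher by 1.67 to 2.08 on the log2 scale. Acta2, smooth muscle actin, had 430 and 322 CPM, against 137 and 88.4 CPM, while the 6 mural markers summed to 10.6 and 33.2 CPM in the gated cells and 61.6 and 46.9 CPM in the R3hdml-low LECs. Htra1, a secreted protease that cleaves matrix and growth factor binding proteins, had 267 and 271 CPM, against 89.9 and 87.6 CPM (1.60, SE 0.058, adjusted p = 5.40e-15 in edgeR).

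FGF drives fiber differentiation in the lens. Of 14 genes for FGF receptors and feedback, 9 were lower and Fgfr2 was higher in the gated cells than in the R3hdml-low LECs, with a median log2 difference of −0.87. Dusp6, a phosphatase that shuts off ERK, had 8.22 and 3.56 CPM, against 30.4 and 28.0 CPM (−2.25, SE 0.21, adjusted p = 2.32e-08 in edgeR). Etv5, a transcription factor induced by FGF, had 4.11 and 1.43 CPM, against 16.4 and 18.9 CPM. Fgfr3 was lower (53.1 and 52.7 CPM, against 76.6 and 79.9 CPM) and Fgfr2 higher (84.7 and 83.8 CPM, against 59.6 and 54.3 CPM). With at most 3 Cdkn1c UMIs, 2 of 11 were lower and 0 higher by edgeR (3 and 0 at an unadjusted p under 0.05). Prox1, needed for fiber elongation in mouse, had 284 and 277 CPM, against 538 and 561 CPM (−0.97, SE 0.053, adjusted p = 2.78e-12 in edgeR).

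Of 20 DNA replication genes, 15 were higher and 0 lower by edgeR, and 0 were lower at an unadjusted p under 0.05 or in DESeq2, which called 12 higher. The median log2 difference was 0.63. Pcna, the sliding clamp of DNA polymerase, had 71.5 and 84.8 CPM, against 47.4 and 55.6 CPM (0.60, SE 0.12, adjusted p = 0.000752 in edgeR), below the 245 and 296 CPM of the cycling LECs. Mcm5 of the replicative helicase had 33.2 and 33.1 CPM, against 20.2 and 17.5 CPM. With at most 3 Cdkn1c UMIs in every class, 0 of the 20 were called in either direction by edgeR, 3 were lower at an unadjusted p under 0.05 and the median was −0.20.

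Of 24 immediate early genes, 15 were higher and Atf3 was lower in the gated cells than in the R3hdml-low LECs (7 and 1 without the pool as a block). Fos, a subunit of AP-1, had 3736 and 2844 CPM, against 2725 and 2127 CPM (0.44, SE 0.086, adjusted p = 0.000561 in edgeR). Ccn1, a matrix-associated protein, had 555 and 421 CPM, against 256 and 161 CPM. With at most 3 Cdkn1c UMIs, 4 were higher and 0 lower by edgeR, with 6 and 2 at an unadjusted p under 0.05. Of 16 CNTF and STAT3 genes, Gfap, Pim1, Socs3, Pim3, Stat3 and the receptor subunit gene Cntfr were higher and Ptpn11 lower. Without the pool block 4 were higher and 0 lower, and with at most 3 Cdkn1c UMIs 1 was higher and 1 lower. Socs3 had 613 and 489 CPM, against 335 and 298 CPM (0.80, SE 0.093, adjusted p = 5.98e-07 in edgeR). Of the glutathione genes, 8 were higher, among them Ggt1, Gsto1, Gpx8 and Gstm1, and 4 were lower. The 8 include the label gene Slc7a11, which was chosen on these cells. The rate-limiting enzyme of glutathione synthesis was among the lower ones with its subunit genes Gclc (19.2 and 22.5 CPM, against 32.8 and 34.8 CPM) and Gclm (40.3 and 40.3 CPM, against 118 and 155 CPM). With at most 3 Cdkn1c UMIs, 5 genes of this list were higher and 0 lower by edgeR (6 and 1 at an unadjusted p under 0.05), so these lower calls were lost.

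**Figure D5:**
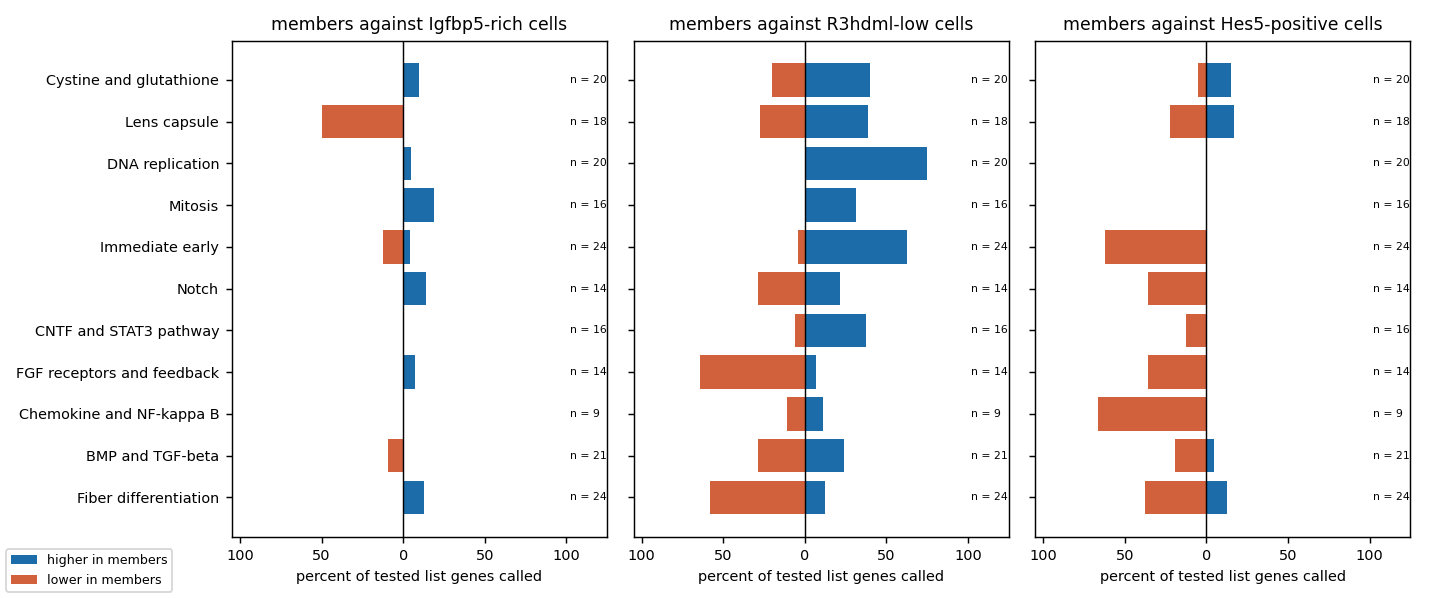
Percentage of the tested genes of 11 lists that were called higher (blue, right of 0) or lower (orange, left of 0) in the gated cells (members) against the Igfbp5-rich, R3hdml-low and Hes5-positive LECs, with the number of genes tested (n). The capsule list had 9 of 18 lower against the Igfbp5-rich LECs, and the immediate early list had 15 of 24 higher against the R3hdml-low LECs and 15 of 24 lower against the Hes5-positive LECs.

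The third comparison set the gated cells against the Hes5-positive LECs, in which Notch signaling is read out by the effector Hes5. Notch targets, immediate early genes and chemokines were lower in the gated cells. In edgeR 206 genes were higher (1.55%) and 257 lower (1.93%), and 11 and 62 without the pool as a block. Since the Hes5-positive LECs were not gated on R3hdml or Igfbp5, they held 723 and 557 CPM of R3hdml.

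Of 14 Notch genes, 0 were higher and 5 lower in edgeR, as in DESeq2 and without the pool as a block, and 0 were higher at an unadjusted p under 0.05. Hey1, a transcriptional repressor induced by Notch, had 29.9 and 30.7 CPM in the gated cells, against 83.0 and 86.7 CPM in the Hes5-positive LECs (−1.49, SE 0.096, adjusted p = 9.10e-10 in edgeR). Hes1, a repressor of the same kind, had 651 and 682 CPM, against 1159.9 and 1341 CPM (−0.90, SE 0.050, adjusted p = 7.75e-11 in edgeR). Jag1, a Notch ligand, had 21.9 and 17.1 CPM, against 55.1 and 47.9 CPM. Heyl and Nrarp completed the 5. The Hes5 limit of the gate acts on the same pathway, so these differences are close to what chose the classes.

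Of 24 immediate early genes, 0 were higher and 15 lower than in the Hes5-positive LECs by edgeR, and 0 were higher at an unadjusted p under 0.05. DESeq2 called 0 higher and 12 lower, and 3 were lower without the pool as a block. Jun had 1888 and 1662 CPM, against 2859 and 2875 CPM (−0.69, SE 0.058, adjusted p = 6.06e-08 in edgeR), and Atf3, a stress-induced transcription factor, had 59.7 and 33.5 CPM, against 154 and 137 CPM. Of 9 chemokine and NF-kappa B genes, 6 were lower and 0 higher by edgeR, 0 were higher at an unadjusted p under 0.05, and DESeq2 called 3 lower. Ccl2, a chemokine that attracts monocytes, had 15.9 and 22.1 CPM, against 32.4 and 97.8 CPM (−1.70, SE 0.16, adjusted p = 2.99e-07 in edgeR), and it was not called without the block. The Ccl2 difference was −1.03 in replicate 1 alone and −2.14 in replicate 2 alone. Nfkbia, the inhibitor of NF-kappa B, had 57.3 and 67.7 CPM, against 99.9 and 123 CPM. The 6 macrophage markers summed to 3.16 and 1.44 CPM in the gated cells and 9.11 and 17.0 CPM in the Hes5-positive LECs, and their part in the chemokine difference was not tested.

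Genes above the Hes5-positive level included Zbtb8b, a zinc finger protein, at 127 and 112 CPM, against 61.9 and 58.2 CPM (0.97, SE 0.12, adjusted p = 1.54e-05 in edgeR). Susd2, a membrane protein with a sushi domain, had 75.6 and 75.2 CPM, against 51.4 and 45.4 CPM. Ptn, the growth factor pleiotrophin, had 170 and 176 CPM, against 112 and 115 CPM (0.60, SE 0.082, adjusted p = 5.99e-05 in edgeR). Selenbp1, Sostdc1, Vsnl1, Rcan1 and Wnt5b were also higher, by 0.58 to 0.65 on the log2 scale. Among the lower genes, Id1 had 36.4 and 28.9 CPM, against 153 and 123 CPM (−2.06, SE 0.18, adjusted p = 9.96e-08 in edgeR), and Thbs1, an activator of TGF-beta, had 26.3 and 26.0 CPM, against 80.3 and 78.0 CPM. Cdkn1c had 544 and 505 CPM, against 1399 and 1258 CPM. Ccdc80, Rbm24 and Nnat were lower, with log2 differences of −2.17, −1.93 and −1.66. Of 24 fiber differentiation genes, 9 were lower and 3 higher, and with at most 3 Cdkn1c UMIs 2 were lower and 4 higher. Under that limit 151 of all 11336 genes tested were lower and 77 higher. Of 20 DNA replication genes, 0 passed in either direction by edgeR or DESeq2 and 0 reached an unadjusted p under 0.05, and the median was −0.00.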

How the data were processed

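Both libraries were 10x Genomics 3′ v3.1 single-cell libraries. The authors aligned the reads to mm10 with Cell Ranger (6.1.1 in the submitters' processing notes) and deposited tables of raw UMI counts per gene and barcode, with no normalization, holding 93839132 and 86033032 UMIs. They were handled with scanpy 1.11.5 on Python 3.11.15. The gate was applied to raw UMIs, and 7 LEC classes were formed in order: beta crystallin-rich, cycling, Hes5-positive, then 4 classes by the R3hdml and Cntf and the Igfbp5, Podn and Ptgds limits. Members and gene lists were chosen with earlier results of these data known. Doublets were not removed in the main analysis; leaving out the 8% of barcodes with the highest Scrublet scores was an alternative, which marked 9.82% and 10.5% of the gated cells.

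UMIs were summed per pool and class (14 sums) and fitted with edgeR 4.0.16 in R 4.3.3 (default filter on low counts, TMM, pool as block), leaving the gate genes out of the adjustment. The pool is a block because both classes of a pair come from the same pool of animals; deviations of sums from the same pool correlated at 0.0814 to 0.322. The text names the 10 largest changes per direction past an adjusted p of 0.05 with the same sign in both pools and at least 50 CPM in the higher class, leaving out ribosomal, mitochondrial and unnamed gene models; label genes that met the rule are given as values only. Shares of cells with a UMI were compared after thinning to 3000 UMIs. Members of a list were named after their values had been seen. The gate was drawn on these cells, so the tests say whether sums differ beyond the spread between pools, not that a separate cell type exists. The edgeR and DESeq2 tests were tried on simulated sums per pool and class, without a simulated pool difference. The gate, the thinning and the doublet scores were not simulated. Gene positions are from GENCODE vM21. DESeq2 1.42.0 was an alternative.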

Additional observations from a re-analysis of the deposited data

How the results depend on the processing

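The share of gated cells (5.25%) was 6.07% among LECs with 5000 to 10000 UMIs, 3.17% with at least 9 R3hdml and Cntf UMIs, 2.10% with 0 UMIs of the Igfbp5 trio, and 4.97% to 5.45% over single pools. Against the Igfbp5-rich LECs, the 303 higher genes became 116 at 5000 to 10000 UMIs, 9 with no replicate block and 121 by library size without TMM. The 215 lower genes became 119, 102 with at least 9 UMIs, 118 without any cell cycle UMI (chosen after seeing the data), 4 with no replicate block, 375 without a filter and 103 in DESeq2. Against the R3hdml-low LECs, 1309 higher and 1041 lower became 768 and 582 with the trio at 0 against 3 or more, 288 and 132 with at most 3 Cdkn1c UMIs (chosen after seeing the data), and 760 and 621 with no replicate block. Against the Hes5-positive LECs, 206 higher became 330 with R3hdml and Cntf at 0.1% of UMIs, and 206 higher and 257 lower became 79 and 126 for the trio, 77 and 151 for Cdkn1c, and 11 and 62 with no replicate block. The 257 lower became 388 without a filter. The cause was not tested.

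Among the 60 named comparisons, the sign changed only with at most 3 Cdkn1c UMIs, a limit that removes the Cdkn1c-rich cells themselves: Cdkn1c became 0.0189 against the R3hdml-low and 0.12 against the Hes5-positive LECs, and Rbm24 0.10 against the Hes5-positive LECs. Without 1 pool no residual degree of freedom among pools remains, so those values carry no test. Summed counts of 601 and 399 cells limit genes under about 1 CPM, where 3 UMIs correspond to 0.862 and 1.08 CPM.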

Other observations

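Of 18 Wnt genes, Sfrp1, a secreted Wnt antagonist, was the 1 lower in the gated cells than in the Igfbp5-rich LECs (1042 and 928 CPM, against 1211 and 1082 CPM). Against the R3hdml-low LECs 7 Wnt genes were higher, among them Wnt5b (54.0 and 68.1 CPM, against 27.5 and 23.8 CPM), and 2 were lower. Of 12 insulin-like growth factor genes other than Igfbp5, Igf1r was the 1 lower than in the Igfbp5-rich LECs, and 0 were higher in edgeR or DESeq2 (1 at an unadjusted p under 0.05 in edgeR).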
